A study of Mus musculus with 24 samples.

Results

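The comparison described here set mouse lungs that received bleomycin with a gapmer against the long noncoding RNA Dnm3os, the one labelled GP DNM3OS-3 (gapmer 3), against lungs that received bleomycin with a control gapmer (GP Ctrl). The members were the 10 arrays with those titles, 5 in each group, of 24 in the series, read over all 20728 named genes of the array with 1 feature (array spot) per gene, the one with the highest mean over the 24 arrays. The series asked how silencing of Dnm3os changes bleomycin-induced lung fibrosis. Total RNA of whole lung was labelled with Cy3 and hybridised to 1-colour Agilent arrays. All mice were C57BL/6 animals aged 9 to 12 weeks. The other groups used beside the comparison were PBS lungs with gapmer 3 (3 arrays), PBS lungs with the control gapmer (3 arrays), and bleomycin lungs (5 arrays) and PBS lungs (3 arrays) with gapmer 1, a second gapmer against Dnm3os. Doses, the time between bleomycin and RNA extraction, and the animal behind each sample are not stated in the labels used here, so a p-value measures only how far these samples spread, which may be technical.

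Dnm3os is transcribed from the strand opposite the dynamin gene Dnm3 and is the precursor transcript of miR-199a and miR-214, microRNAs found mainly in mesenchymal cells. A gapmer is a short antisense oligonucleotide with a DNA core, which lets RNase H cut the RNA it pairs with. Bleomycin injures the lung epithelium, and repair in this model runs through inflammation, loss of alveolar cells, proliferation and the deposition of collagen-rich matrix by fibroblasts and myofibroblasts.

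The microRNA sequences of the locus are shown because they are the known products of the targeted transcript. They come from RefSeq on GRCm38.p6, all on the plus strand of chromosome 1, and capitals mark the seed (bases 2 to 8), the part of a microRNA that pairs with its targets. The gapmer sequences were not used here, and no microRNA level was measured by the values used here.
miR-199a-5p (chr1:162217844-162217866): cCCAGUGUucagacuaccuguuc
miR-199a-3p (chr1:162217883-162217904): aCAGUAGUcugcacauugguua
miR-214-3p (chr1:162223438-162223459): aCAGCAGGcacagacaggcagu

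Values are log2 intensities, so a difference of 1 is a 2-fold change, and levels are compared between groups and never between genes. Every one of the 10 arrays carried the lung markers Sftpc (17.94 to 18.25) and Scgb1a1 (17.97 to 18.25) at the top of the scale. Gapmer 3 replicate 1 stood apart: Acta1, an actin of skeletal muscle, was at 8.86 against 12.43 to 14.53 on the 4 other gapmer 3 arrays, Krt5, a keratin of basal epithelium, at 8.11 against 11.16 to 11.66, and Krt13, a keratin of stratified epithelium such as the oesophagus, at 6.88 against 13.05 to 13.69. The other gapmer 3 arrays were not alike either. Myh2, a myosin of skeletal muscle, was at 13.97 and 13.91 on gapmer 3 replicates 2 and 3. It lay between 6.36 and 8.80 on gapmer 3 replicates 1, 4 and 5 and between 5.91 and 6.26 on the controls. Control replicate 3 carried the thymocyte genes Rag1 (10.22 against 5.56 to 5.65 on the 4 other control arrays) and Dntt (11.56 against 7.27 to 7.44). The control arrays were closer to each other than the gapmer 3 arrays in the skeletal muscle list (median SD 0.14 and 1.95) and in the basal and squamous list (0.25 and 0.64), and farther apart in the thymus list (0.57 and 0.14). Over the 200 genes that varied most within the 4 groups outside this comparison, the median SD was 0.26 among the controls and 0.84 among the gapmer 3 arrays, and over all genes it was 0.12 and 0.11. The gapmer 1 bleomycin arrays had a median SD of 0.28 over the same 200 genes. The RNA integrity numbers of the 2 groups overlapped (9.0 to 9.9 and 9.2 to 9.9).

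**Figure D1:**
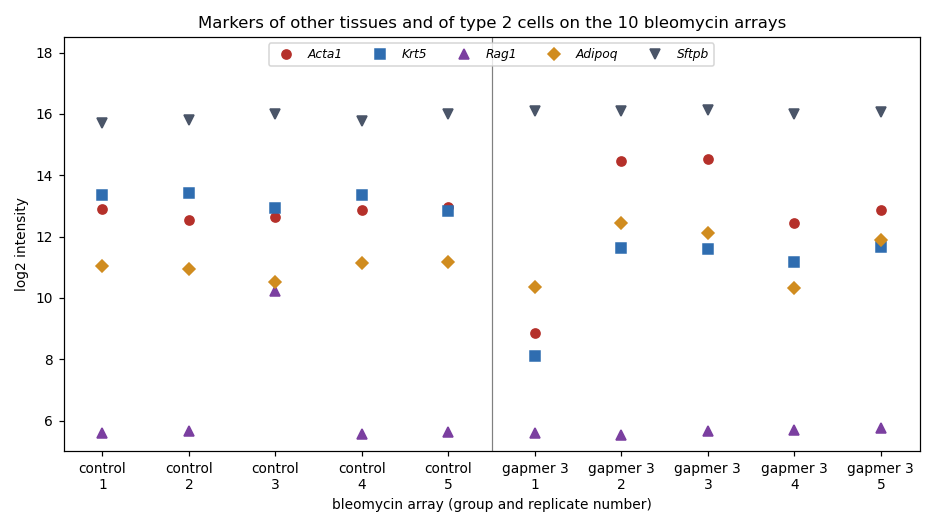
Log2 intensity (vertical axis) of 5 marker genes on the 5 control and 5 gapmer 3 bleomycin arrays (horizontal axis, by replicate number). Acta1 and Krt5 are low on gapmer 3 replicate 1, at 8.86 and 8.11, Rag1 is high on control replicate 3 alone, at 10.22, and the type 2 cell gene Sftpb stays between 15.70 and 16.12 on all 10 arrays.

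Dnm3os itself was lower under gapmer 3. Its brightest feature read 6.84, 7.03, 6.64, 7.05 and 6.93 on the 5 control arrays and 6.29, 6.26, 6.26, 6.42 and 6.78 on the 5 gapmer 3 arrays. On 4 of the 5 gapmer 3 arrays it lay below the lowest control, and replicate 5, at 6.78, lay within the control range. The difference was -0.50 log2 units (SE 0.11, adjusted p = 0.00293), or 1.41-fold, and an exact permutation test of this feature alone, two-sided, gave p = 0.0159 (0.0954 after Benjamini-Hochberg adjustment over the 6 tests of 3 features in bleomycin and PBS lungs). The second feature differed by -0.21 (exact p = 0.0556, and -0.26 with exact p = 0.00794 without gapmer 3 replicate 1), and the third, at 5.72 ± 0.08 (SD, n = 5) under gapmer 3, was too dim to read. All 3 features were dim, the brightest at the 28.5 percentile of gene means, so the size of the fall is poorly resolved. In PBS lungs the brightest feature read 6.37, 6.27 and 6.39 under the control gapmer and 6.12, 6.22 and 5.95 under gapmer 3, a difference of -0.25 with exact p = 0.1, the smallest that 3 against 3 arrays can give. Dnm3, the protein-coding gene on the opposite strand, differed by 0.17 (adjusted p = 0.655) in bleomycin lungs, with overlapping groups.

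Across the whole array, gapmer 3 lowered more genes than it raised, and the large changes were nearly all falls. With limma and Benjamini-Hochberg adjustment over 20728 genes, 2726 genes (13.2%) passed an adjusted p of 0.05, 1167 higher (5.63%) and 1559 lower (7.52%). Of those that changed more than 2-fold, 5 were higher and 121 lower, while the median difference of all genes was 0.01. These shares are the background for every gene list below. Among the gene lists, falls were most frequent in those of lymphocytes, chemokines, matrix-degrading enzymes, dividing cells, airway secretory cells and provisional matrix, and rises in those of alveolar epithelium and lung endothelium. Whole lung mixes many cells, so fewer cells of a type and less RNA per cell cannot be told apart. When the 5 control arrays were entered as 1 averaged array, an alternative chosen after seeing the data, 128 genes were called, 7 higher and 121 lower, 111 of them among the 2726. This setting sets 1 array against 5, and it lowered the count of called members by more than 1.5 times in 43 of the 49 lists. In it the calls were 10 for T cells, 4 for basal and squamous epithelium, 3 each for B cells and chemokines, 1 each for type 1 cells, metalloproteinases, provisional matrix, contractile genes and collagens, and 0 for type 2 cells, lung endothelium, airway secretory cells and the cell cycle; the thymus list went from 0 to 2, both lower. Leaving out control replicate 2 gave 1775 genes, and leaving out gapmer 3 replicate 1 together with control replicate 3, also chosen after seeing the data, gave 2336. The excess of falls was smaller with median centring, at 1300 higher and 1409 lower, and without control replicate 5, at 1506 and 1559.

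**Figure D2:**
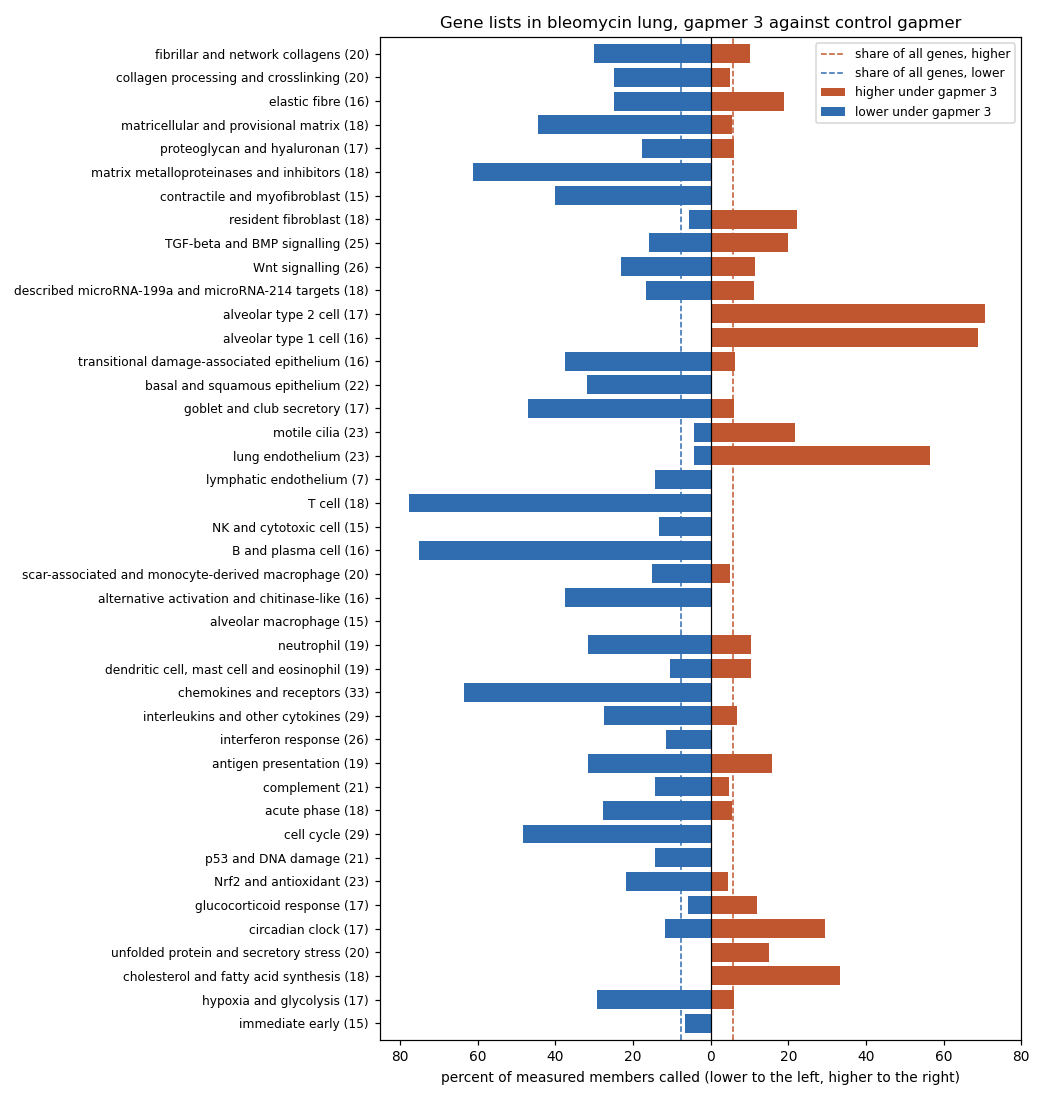
Share of the measured members of each gene list (horizontal axis, percent, number measured in brackets) called lower (blue, to the left) or higher (orange, to the right) under gapmer 3 in bleomycin lung, with dashed lines at the shares of all genes, 7.52% and 5.63%. The T cell list reaches 77.8% lower and the alveolar type 2 list 70.6% higher.

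The 12 largest falls, among genes whose groups did not overlap and whose higher group mean lay above 8.54, the median of gene means, included keratins, other epithelial genes and secreted proteins. Groups of 5 and 5 arrays without overlap were found for 1665 genes lower (8.03%) and 1002 higher (4.83%). Sprr2f, a small proline-rich protein of squamous epithelium, read 10.31, 10.70, 9.72, 10.02 and 9.31 on the control arrays and 5.60, 5.59, 5.56, 5.47 and 5.55 under gapmer 3. Its gapmer 3 values sat at the level of the PBS controls (mean 5.64), and it fell by 4.46 log2 units (SE 0.18, adjusted p = 3.4e-13). Spink8, a serine protease inhibitor gene, fell by 3.74 log2 units (SE 0.12, adjusted p = 3.68e-15), from 9.47, 9.89, 9.44, 9.32 and 8.87 to 5.68, 5.50, 5.64, 5.66 and 5.82. Mmp7, the matrilysin of injured epithelium, read 9.73, 9.94, 9.11, 9.62 and 7.66 on the controls, with replicate 5 well below the others, and 5.67, 5.76, 6.11, 5.81 and 5.74 under gapmer 3, and fell by 3.40 log2 units (SE 0.26, adjusted p = 2.3e-08). Values under about 6.11, the 25th percentile of gene means, lie near the floor of the table, so the size of these 3 falls is not resolved. Sprr2f has near-identical relatives, as have Gsdmc3 and the immunoglobulin segments, so how far each probe reads its own gene is uncertain.

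Krt17, a keratin of basal and wounded epithelium, fell by 3.13 log2 units (SE 0.12, adjusted p = 2.71e-13), from 9.69, 9.97, 9.70, 9.68 and 9.30 to 6.82, 6.49, 6.41, 6.68 and 6.28. The others of this rank were Clca1, a secreted protein of goblet cells, at -3.10 (adjusted p = 0.00104), Gsdmc3, of the gasdermin family, at -3.05 (adjusted p = 3.06e-07), Glycam1, a mucin-like ligand of L-selectin, at -3.0 (adjusted p = 1.26e-08), the chitinase-like gene Chil4 at -2.90 (adjusted p = 2.07e-08), the epidermal lipoxygenase Alox12e at -2.57 (adjusted p = 1.22e-10), the immunoglobulin segment Igkv5-39 at -2.28 (adjusted p = 0.00667) and Ubd, an inducible ubiquitin-like modifier, at -2.20 (adjusted p = 1.29e-05). Krt5 fell by 2.35 (adjusted p = 0.0489), and this call was lost when any 1 of the 10 arrays was left out, with differences from -2.56 to -1.67. By the rule that chose them, all 5 gapmer 3 arrays lay below all 5 controls in these 12 genes.

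The rises were smaller. Slc7a10, a neutral amino acid transporter, read 8.83, 7.78, 8.85, 8.49 and 9.39 on the control arrays and 9.74, 10.00, 10.29, 9.79 and 9.89 under gapmer 3, a rise of 1.27 log2 units (SE 0.27, adjusted p = 0.00326). Hc, which encodes complement C5 and is expressed by type 2 cells, rose by 1.00 log2 units (SE 0.16, adjusted p = 0.000181), from 15.33, 14.71, 15.16, 15.03 and 14.92 to 15.96, 15.90, 16.12, 16.17 and 16. Cavin2, a caveolar coat protein abundant in lung endothelium, read 15.50, 15.17, 15.44, 15.29 and 15.15 and 16.10, 16, 16.18, 16.12 and 16.22, a rise of 0.81 log2 units (SE 0.12, adjusted p = 9.62e-05), and the PBS control mean was 16.33. The others of the 12 were Bcan at 1.17 (adjusted p = 0.00193), Cys1 at 0.93 (adjusted p = 0.0127), Adamts17 at 0.90 (adjusted p = 0.00548), Thbs3 at 0.88 (adjusted p = 0.000405), Fam162b at 0.86 (adjusted p = 0.000227), Mlc1 at 0.79 (adjusted p = 0.000148), the methyltransferase Inmt at 0.79 (adjusted p = 0.0201), Snhg11 at 0.78 (adjusted p = 0.00534) and Nrn1 at 0.77 (adjusted p = 0.000966). The groups do not overlap in these 12 genes by the same rule. Inmt lost its call without control replicate 2 (adjusted p = 0.0742), control replicate 4 (0.0537) or gapmer 3 replicate 3 (0.0571).

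**Figure D3:**
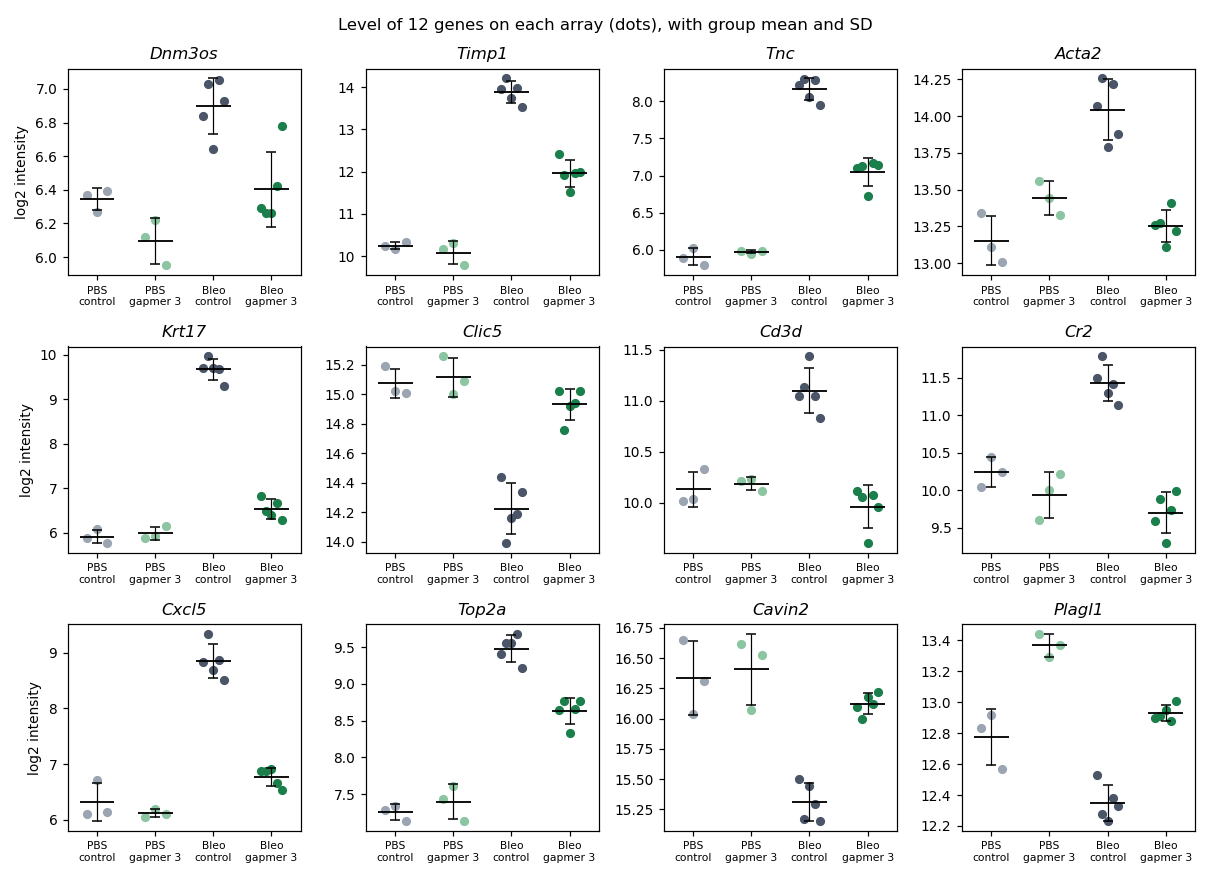
Log2 intensity (vertical axis, its own scale per panel) of 12 genes on each array of 4 groups, with the group mean (long line) and SD (error bar). The bleomycin control arrays stand above the gapmer 3 arrays for Timp1, Tnc, Acta2, Krt17, Cd3d, Cr2, Cxcl5 and Top2a and below them for Clic5, Cavin2 and Plagl1, and Dnm3os overlaps through gapmer 3 replicate 5 at 6.78.

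Many provisional and matricellular matrix genes fell under gapmer 3. Of 18 matricellular and provisional matrix genes, 8 were lower and 1 higher, with a median difference of -0.42. Tnc, tenascin-C, a matrix protein of wounds, read 8.22, 8.30, 8.06, 8.28 and 7.95 on the controls and 7.10, 7.13, 6.72, 7.17 and 7.14 under gapmer 3, and fell by 1.11 log2 units (SE 0.12, adjusted p = 2.1e-06). Fn1, fibronectin, fell by 0.50 log2 units (SE 0.12, adjusted p = 0.0066), from 16.39, 16.52, 16.46, 16.32 and 16.18 to 15.90, 15.89, 15.61, 16.05 and 15.92. Both groups separated completely in both genes. Cthrc1, a marker of collagen-producing fibroblasts in fibrosis, fell by 0.87 (adjusted p = 0.00139), Thbs2, thrombospondin-2, by 0.90 (adjusted p = 0.00615) and Ccn2, connective tissue growth factor, by 0.55 (adjusted p = 0.0142). Thbs3, another thrombospondin gene, was not on this list and rose by 0.88 (adjusted p = 0.000405). Postn, periostin, differed by -0.00 (adjusted p = 0.991) and Spp1, osteopontin, by -0.50 (adjusted p = 0.0615). Gapmer 3 replicate 1 held the highest gapmer 3 value of Spp1 (14.04, 13.54, 12.97, 13.26 and 13.28, against 13.90, 14.06, 13.94, 14.07 and 13.61 on the controls), and without it the difference was -0.66 with an adjusted p of 0.0086. It was -0.58 with an adjusted p of 0.0364 without control replicate 5.

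Among 20 collagen genes 6 were lower and 2 higher, with a median of -0.30, and 4, all lower, were called without control replicate 2. Col1a1, a chain of type I collagen, read 14.85, 15.07, 14.92, 14.94 and 14.70 on the controls and 14.54, 14.42, 14.15, 14.61 and 14.50 under gapmer 3, where the groups did not overlap and the difference was -0.45 log2 units (SE 0.13, adjusted p = 0.022). Its call was lost without control replicate 2 (adjusted p = 0.07), control replicate 4 (0.0509) or gapmer 3 replicate 3 (0.0768). Col1a2 differed by -0.54 (adjusted p = 0.0805) and Col3a1, of type III collagen, by -0.37 (adjusted p = 0.0739); both missed the threshold although all gapmer 3 values of each were below all control values. Some called falls were larger than that of Col1a1: Col5a3 fell by 1.06 (adjusted p = 0.00112), Col5a1 by 0.80 (adjusted p = 0.00135), Col7a1 by 0.70 (adjusted p = 4.49e-05) and the basement membrane collagen Col18a1 by 0.58 (adjusted p = 0.000316). Of 20 genes of collagen processing and crosslinking, 5 were lower and 1 higher. Lox, lysyl oxidase, fell by 1.03 (adjusted p = 0.0055) and Loxl2 by 0.53 (adjusted p = 0.0109).

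Matrix metalloproteinases and their inhibitors were lower in 11 of 18 genes and higher in none, with a median of -0.46, and 1 was called with the controls averaged. Timp1, an inhibitor of metalloproteinases that marks fibrotic lungs, read 13.95, 14.22, 13.74, 13.98 and 13.53 on the controls and 12.41, 11.92, 11.51, 11.97 and 11.99 under gapmer 3. The fall of 1.93 log2 units (SE 0.25, adjusted p = 2.65e-05) was 3.8-fold, with the PBS control mean at 10.25, so the gapmer 3 arrays stayed above uninjured lung. Mmp12, the macrophage elastase, fell by 0.88 (adjusted p = 0.00418) and Mmp13, a collagenase, by 0.83 (adjusted p = 0.000623). Has2, which makes hyaluronan, fell by 1.59 log2 units (SE 0.22, adjusted p = 6.18e-05) within a list of 17 proteoglycan and hyaluronan genes. Of these 3 were lower and 1 higher, and 2 were called, both lower, without control replicate 2 or gapmer 3 replicate 1. Bcan, which encodes the proteoglycan brevican, was not on this list and rose by 1.17 (adjusted p = 0.00193). Of 16 elastic fibre genes, 3 were higher, among them Mfap4 by 0.44 (adjusted p = 0.00477), and 4 lower, among them Fbln2 by 0.72 (adjusted p = 0.0131); without control replicate 2 or gapmer 3 replicate 3 the count was 2 in each direction.

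Some contractile genes of myofibroblasts and smooth muscle fell. Of 15 contractile and myofibroblast genes, 6 were lower and none higher, with a median of -0.24. Acta2, alpha smooth muscle actin, read 14.07, 14.26, 13.79, 14.22 and 13.88 on the controls and 13.26, 13.27, 13.11, 13.41 and 13.22 under gapmer 3, and fell by 0.79 log2 units (SE 0.12, adjusted p = 9.62e-05). The gapmer 3 arrays lay near the PBS controls (13.34, 13.11 and 13.01). Tagln, transgelin, fell by 0.66 log2 units (SE 0.08, adjusted p = 1.56e-05), from 14.83, 14.95, 14.61, 15.02 and 14.66 to 14.22, 14.16, 14.08, 14.24 and 14.06, the gamma actin gene Actg2 by 0.89 (adjusted p = 0.000178), and Lrrc15, a myofibroblast surface protein, by 0.78 (adjusted p = 0.00453). Among 18 resident fibroblast genes 4 were higher and 1 lower, with a median of 0.20, and 2 and 1 were called without control replicate 2, control replicate 4 or gapmer 3 replicate 3. Tcf21, a transcription factor of lipofibroblasts, rose by 0.69 log2 units (SE 0.16, adjusted p = 0.00732), from 10.55, 10.04, 10.54, 10.45 and 10.89 to 11.31, 11.31, 11.15, 11.20 and 10.94. Fgf10, a growth factor that acts on alveolar epithelium, rose by 0.30 (adjusted p = 0.00153), and the transcription factor Ebf1 fell by 0.37 (adjusted p = 0.0118).

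In the lists of TGF-beta and BMP genes and of Wnt genes, some members were called in each direction. Of 25 TGF-beta and BMP pathway genes, 5 were higher and 4 lower, with a median of 0.01, and 1 and 5 when gapmer 3 replicate 1 and control replicate 3 were both left out. The ligand Tgfb1 differed by -0.33 (adjusted p = 0.0782) with overlapping groups, and by -0.40 with an adjusted p of 0.0414 without control replicate 3. Inhba, which encodes the activin A subunit, read 10.14, 10.28, 9.84, 10.19 and 9.62 on the controls and 8.94, 8.75, 8.53, 8.54 and 8.71 under gapmer 3, and fell by 1.32 log2 units (SE 0.24, adjusted p = 0.000768). Grem1, gremlin-1, a secreted BMP antagonist, fell by 1.24 log2 units (SE 0.26, adjusted p = 0.00277), from 9.59, 9.77, 9.37, 9.62 and 8.96 to 8.62, 8.29, 7.29, 8.47 and 8.42. The rises included the ligand Bmp6 by 0.59 (adjusted p = 0.012), the endothelial receptor Acvrl1 by 0.58 (adjusted p = 0.0147) and the inhibitory Smad7 by 0.48 (adjusted p = 0.0158). In the Wnt list, 6 of 26 genes were lower and 3 higher: the ligand Wnt10a fell by 1.32 (adjusted p = 0.000487), the secreted inhibitor Sfrp1 by 1.10 (adjusted p = 6.18e-05) and the nuclear effector Lef1 by 0.79 (adjusted p = 2.32e-05), while the ligand Wnt10b rose by 0.60 (adjusted p = 0.00819).

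Most genes described as targets of miR-199a or miR-214, 13 of 18, were not called. Of 18 measured, 2 were higher (11.1%) and 3 lower (16.7%), against 5.63% and 7.52% of all genes. The differences ran from -0.55 to 0.45, with a median of -0.02. The calls were 1 and 1 without control replicate 2 and 2 and 1 without gapmer 3 replicate 3. Cav1, caveolin-1, which restrains TGF-beta signalling and is also abundant in type 1 cells, rose by 0.45 log2 units (SE 0.12, adjusted p = 0.0135), from 9.82, 9.58, 9.83, 9.78 and 10.03 to 10.28, 10.22, 10.37, 10.20 and 10.23, with an adjusted p of 0.0502 without control replicate 2. The phosphatase gene Ptprf rose by 0.35 (adjusted p = 0.00665). Fgf7, keratinocyte growth factor, differed by 0.26 (adjusted p = 0.106), and by 0.33 with an adjusted p of 0.0336 without control replicate 5. Hgf, hepatocyte growth factor, differed by -0.08 (adjusted p = 0.581), Ptgs2, the inducible cyclooxygenase, by -0.02 (adjusted p = 0.944) and the kinase gene Gsk3b by 0.02 (adjusted p = 0.929). The 95% interval of the difference was -0.25 to 0.08 for Hgf, -0.30 to 0.25 for Ptgs2 and -0.17 to 0.21 for Gsk3b.

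Alveolar type 2 cells, which make surfactant, had, with type 1 cells, the 2 largest shares of rises among the lists in the fit of all arrays. Of 17 type 2 cell genes 12 were higher and none lower, with a median of 0.47, and 7 were higher without control replicate 2 or control replicate 4 and 0 with the controls averaged to 1 array. Slc34a2, the phosphate transporter of type 2 cells, read 11.62, 11.26, 11.31, 11.43 and 11.31 on the controls and 12.09, 11.93, 12.16, 12.32 and 12.25 under gapmer 3, a rise of 0.76 log2 units (SE 0.14, adjusted p = 0.000666). Lamp3, a lamellar body protein, rose by 0.64 log2 units (SE 0.12, adjusted p = 0.000975), from 14.94, 14.70, 15.10, 14.95 and 15.38 to 15.55, 15.64, 15.81, 15.67 and 15.60. The groups were separate for both genes. Chil1 rose by 0.71 (adjusted p = 0.000504) and the surfactant protein gene Sftpa1 by 0.63 (adjusted p = 0.00412). Sftpc, at the top of the intensity scale in both groups, differed by -0.04 (adjusted p = 0.661).

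Type 1 cells, the thin cells of gas exchange, were marked by rises too. Of 16 genes 11 were higher and none lower, with a median of 0.41, and 1 was higher with the controls averaged. Clic5, a chloride channel family protein of type 1 cells, read 14.44, 13.99, 14.16, 14.19 and 14.34 on the controls and 15.02, 14.76, 14.92, 14.94 and 15.02 under gapmer 3, a rise of 0.71 log2 units (SE 0.08, adjusted p = 1.04e-05). Vegfa, which type 1 cells make and endothelium needs, rose by 0.55 log2 units (SE 0.08, adjusted p = 4.91e-05), from 14.03, 13.77, 13.93, 14.01 and 14.15 to 14.60, 14.51, 14.49, 14.53 and 14.53. Rtkn2 rose by 0.75 (adjusted p = 0.00177). Ager, the classical type 1 marker, differed by 0.38 (adjusted p = 0.0615), with 13.98, 13.62, 13.94, 14.02 and 14.16 on the controls and 14.35, 14.36, 14.23, 14.37 and 14.30 under gapmer 3, and by 0.43 with an adjusted p of 0.0391 without control replicate 5.

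Some markers of injured and basal epithelium fell. In the list of transitional, damage-associated epithelium, 6 of 16 genes were lower and 1 higher: Cldn4, a tight junction protein induced in injured alveoli, fell by 1.24 log2 units (SE 0.16, adjusted p = 3.15e-05), from 9.42, 9.48, 9.14, 9.47 and 9.13 to 8.47, 8.16, 7.70, 8.08 and 8.01, and Sfn, stratifin, by 0.85 (adjusted p = 0.00122). Of 22 basal and squamous genes 7 were lower and none higher, with a median of -0.85. The mean level of that list ran from 10.03 to 10.38 on the controls, from 7.47 to 9.66 on the gapmer 3 arrays and from 7.12 to 8.93 on the PBS controls. Skeletal muscle genes, which can enter with oesophagus or chest wall, had list means from 9.96 to 10.17 on the controls and from 8.24 to 12.35 under gapmer 3, with 0 of 15 called; the part of neighbouring tissue in the basal and squamous falls was not tested.

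Genes of airway secretory cells fell in part, with 8 of 17 goblet and club genes lower and 1 higher. Muc5ac, the inducible gel-forming mucin of goblet cells, read 8.37, 8.58, 8.07, 8.64 and 8.25 on the controls and 7.65, 7.56, 7.04, 7.27 and 7.23 under gapmer 3, and fell by 1.03 log2 units (SE 0.22, adjusted p = 0.0027). Agr2, needed for mucin folding, fell by 1.01 log2 units (SE 0.16, adjusted p = 0.00021), from 9.76, 10.03, 9.68, 9.86 and 9.70 to 8.81, 8.92, 8.61, 9.01 and 8.65. Ltf, lactoferrin, fell by 1.38 (adjusted p = 6.18e-05) and Muc5b, the resident airway mucin, by 0.54 (adjusted p = 0.0147). Among 23 genes of motile cilia 5 were higher and 1 lower, Ccno, needed for multiciliation, by 0.40 (adjusted p = 0.00124); 2 were higher and 1 lower without control replicate 3 or 4 or gapmer 3 replicate 1, 3, 4 or 5.

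Lung endothelium was higher in 13 of 23 genes and lower in 1, with a median of 0.36, and 0 were called with the controls averaged. Tmem100, a capillary gene downstream of BMP signalling, read 11.89, 11.61, 11.82, 11.82 and 12.32 on the controls and 12.65, 12.65, 12.69, 12.56 and 12.63 under gapmer 3, a rise of 0.74 log2 units (SE 0.13, adjusted p = 0.000564). Hpgd, which degrades prostaglandins, rose by 0.63 log2 units (SE 0.11, adjusted p = 0.000694), from 12.73, 12.37, 12.77, 12.51 and 13.05 to 13.38, 13.36, 13.38, 13.25 and 13.18, and the endothelial transcription factor Sox18 by 0.53 (adjusted p = 0.0026). All gapmer 3 arrays lay above all controls for these 3 genes. The exception was Ackr1, a chemokine receptor of venules, which fell by 1.02 log2 units (SE 0.20, adjusted p = 0.00172), from 9.16, 9.56, 8.95, 9.38 and 8.86 to 8.36, 8.0, 8.21, 8.0 and 8.23. The PBS control mean of Ackr1 was 6.83.

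T cells and B cells had the 2 largest shares of falls among the lists in the fit of all arrays. Of 18 T cell genes 14 were lower and none higher, with a median of -0.86, and 13 or 14 were lower whichever 1 array was left out. Cd3d, of the T cell receptor complex, read 11.05, 11.13, 11.44, 11.05 and 10.83 on the controls and 10.11, 10.06, 9.60, 10.07 and 9.96 under gapmer 3, and fell by 1.14 log2 units (SE 0.12, adjusted p = 1.41e-06). Il2ra, the high-affinity chain of the interleukin-2 receptor, fell by 1.38 log2 units (SE 0.13, adjusted p = 3.02e-07), from 8.95, 9.41, 8.92, 8.96 and 8.68 to 7.95, 7.50, 7.44, 7.52 and 7.60. Cd6 fell by 1.27 (adjusted p = 1.64e-06) and Foxp3, the regulator of regulatory T cells, by 0.94 (adjusted p = 6.18e-05). Cd8b1, of the CD8 coreceptor, read 8.37, 8.79, 9.49, 8.28 and 8.14 on the controls, highest on the array with thymocyte genes, and 7.75, 7.94, 7.72, 7.83 and 7.77 under gapmer 3, and fell by 0.81 log2 units (SE 0.17, adjusted p = 0.00205). The thymus list, with means from 6.66 to 8.45 on the controls and from 6.56 to 6.75 under gapmer 3, had no called member. With gapmer 3 replicate 1 and control replicate 3 left out, 13 T cell genes were lower, and with the controls averaged to 1 array 10 were.

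Of 16 B and plasma cell genes 12 were lower and none higher, with a median of -0.75, and 12 or 13 were called in every omission of 1 array. Cr2, complement receptor 2 of mature B cells and follicular dendritic cells, read 11.49, 11.79, 11.29, 11.42 and 11.14 on the controls and 9.59, 9.88, 9.29, 9.74 and 9.99 under gapmer 3, and fell by 1.73 log2 units (SE 0.16, adjusted p = 4e-07) or 3.32-fold. Cd79a, of the B cell receptor, fell by 1.11 log2 units (SE 0.16, adjusted p = 7.19e-05), from 11.50, 11.74, 11.16, 11.62 and 11.30 to 10.45, 10.70, 9.63, 10.31 and 10.66. Tnfrsf13c, the receptor for BAFF, fell by 1.32 (adjusted p = 1.81e-06), Ms4a1, which encodes CD20, by 0.94 (adjusted p = 0.00012) and Pou2af1, a B cell coactivator, by 1.05 (adjusted p = 0.000196). For Cr2 and Tnfrsf13c all 5 gapmer 3 arrays lay below the PBS control means of 10.24 and 9.60. With the controls averaged to 1 array, 3 B cell genes were called. Of 15 NK and cytotoxic genes, 2 were lower and none higher: Klrg1, an inhibitory receptor, by 0.95 (adjusted p = 6.18e-05) and Ccl5 by 0.86 (adjusted p = 5.16e-05). Without control replicate 5 there were 2 higher as well.

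Most chemokines were lower in the fit of all arrays. Of 33 chemokine and receptor genes 21 were lower and none higher, with a median of -0.55, and 3 were lower with the controls averaged to 1 array. Cxcl5, a neutrophil attractant made by epithelium, read 8.84, 9.34, 8.69, 8.87 and 8.51 on the controls and 6.88, 6.88, 6.91, 6.66 and 6.54 under gapmer 3, and fell by 2.08 log2 units (SE 0.15, adjusted p = 4.46e-09) or 4.21-fold. Ccl2, the monocyte attractant, fell by 1.45 log2 units (SE 0.28, adjusted p = 0.00132), from 11.22, 11.49, 11.10, 11.46 and 10.49 to 10.01, 9.75, 9.00, 9.91 and 9.86. Ccl8 fell by 1.59 log2 units (SE 0.15, adjusted p = 4.06e-07), from 13.13, 13.33, 13.00, 13.31 and 12.95 to 11.67, 11.71, 11.54, 11.41 and 11.46. No gapmer 3 array reached the lowest control in these 3 genes. Ccl24, an eosinophil attractant, fell by 1.63 (adjusted p = 4.13e-05), the interferon-induced Cxcl9 by 1.39 (adjusted p = 0.00407), the monocyte attractant Ccl7 by 1.26 (adjusted p = 0.000248) and Cxcl3, a neutrophil attractant, by 0.76 (adjusted p = 0.000583).

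Of 29 interleukin and other cytokine genes, 8 were lower and 2 higher. Il6 read 8.86, 9.33, 8.82, 8.96 and 8.63 on the controls and 7.38, 7.48, 7.02, 7.43 and 7.03 under gapmer 3, and fell by 1.65 log2 units (SE 0.23, adjusted p = 6.67e-05). Il11, a profibrotic member of the same family, fell by 0.90 log2 units (SE 0.14, adjusted p = 0.000143), from 8.40, 8.64, 8.21, 8.53 and 8.23 to 7.73, 7.44, 7.46, 7.48 and 7.39. Il1b fell by 0.96 (adjusted p = 0.00381), Ltb, lymphotoxin beta, by 0.98 (adjusted p = 3.68e-05) and Lta by 0.97 (adjusted p = 0.000134). Il33, an alarmin stored in type 2 cells and other barrier cells, rose by 0.39 (adjusted p = 0.00276), and control replicate 5 (12.00) lay within the gapmer 3 range.

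The promoters of Il6 and Cxcl3, of these lists, and of Ubd, of the 12 largest falls, are shown because they hold a kappa B site, and were chosen after their values were seen; the site is the motif that NF-kB proteins bind. The 250 bases before the start of each gene come from RefSeq on GRCm38.p6, written in the direction of transcription with the matches in capitals, and the motif searched on both strands was 3 G, any 2 bases, 3 T and 2 C. Il6 and Cxcl3 lie on chromosome 5 and Ubd on chromosome 17, all on the plus strand.
Il6 promoter (chr5:30012864-30013113): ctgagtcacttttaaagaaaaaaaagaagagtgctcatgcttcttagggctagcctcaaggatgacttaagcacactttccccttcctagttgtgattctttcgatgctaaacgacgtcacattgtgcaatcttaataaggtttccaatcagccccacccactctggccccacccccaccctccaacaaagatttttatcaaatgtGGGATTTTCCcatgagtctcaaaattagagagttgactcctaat
Cxcl3 promoter (chr5:90785851-90786100): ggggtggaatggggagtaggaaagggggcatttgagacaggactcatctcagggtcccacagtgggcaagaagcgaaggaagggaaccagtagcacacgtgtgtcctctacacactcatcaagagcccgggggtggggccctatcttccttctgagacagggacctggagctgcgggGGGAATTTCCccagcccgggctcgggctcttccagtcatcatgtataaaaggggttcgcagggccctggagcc
Ubd promoter (chr17:37193642-37193891): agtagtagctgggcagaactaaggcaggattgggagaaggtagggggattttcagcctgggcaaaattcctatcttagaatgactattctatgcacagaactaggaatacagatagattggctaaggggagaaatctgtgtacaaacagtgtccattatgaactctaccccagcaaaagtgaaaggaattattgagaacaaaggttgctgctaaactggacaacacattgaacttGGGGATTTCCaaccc
The motif was found in this window for 5 of 23 chemokine-list genes and 5 of 24 cytokine-list genes with a promoter sequence, against 1.65% of 27025 genes (1.41% of 32851 promoters). Of those that were called, it was in 3 of 12 chemokine-list genes and 3 of 9 cytokine-list genes. A match is a description of letters, and no binding was measured.

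Myeloid genes were mixed. None of 15 alveolar macrophage genes was called, although 2 were higher without control replicate 5 and 1 without gapmer 3 replicate 4. Of 20 genes of scar-associated and monocyte-derived macrophages, 3 were lower, among them Mmp12 and Pla2g7, a lipoprotein-associated phospholipase, by 0.71 (adjusted p = 0.00216), and 1 higher; 2 were called, both lower, without control replicate 2 or 4 or gapmer 3 replicate 3. The list of alternative activation and chitinase-like genes was lower in 6 of 16 and higher in none. It did not hold the chitinase-like gene Chil1, named above with the type 2 cell genes, which rose by 0.71 (adjusted p = 0.000504). Arg1, arginase-1, read 10.48, 10.83, 10.17, 10.55 and 10.05 on the controls and 8.50, 8.66, 7.89, 8.16 and 8.50 under gapmer 3, and fell by 2.07 log2 units (SE 0.28, adjusted p = 4.13e-05). Retnla fell by 1.21 log2 units (SE 0.23, adjusted p = 0.00114), from 16.71, 16.89, 16.70, 16.77 and 16.55 to 15.86, 15.62, 14.98, 15.40 and 15.70, and its PBS control mean was 13.51. Neutrophil genes were lower in 6 of 19, including the decoy receptor Il1r2 by 1.09 (adjusted p = 0.0018), and higher in 2; 5, all lower, were called without control replicate 1, 2, 3 or 4 or gapmer 3 replicate 1 or 3. The dendritic, mast cell and eosinophil list had 2 of 19 in each direction.

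Acute phase genes fell in 5 of 18, with 1 higher. Saa3, a serum amyloid made in injured lung, read 13.02, 13.20, 12.81, 13.16 and 12.51 on the controls and 11.42, 11.29, 10.21, 11.04 and 11.08 under gapmer 3, and fell by 1.94 log2 units (SE 0.34, adjusted p = 0.000607). Serpina3n, a protease inhibitor, fell by 1.27 log2 units (SE 0.14, adjusted p = 5.38e-06), from 11.65, 11.83, 11.48, 11.82 and 11.41 to 10.58, 10.40, 10.34, 10.32 and 10.21, and Saa1 by 1.15 (adjusted p = 7.06e-05). Of 26 interferon response genes 3 were lower, among them Zbp1 by 0.75 (adjusted p = 0.000554), and of 21 complement genes 3 were lower and 1, Hc, higher; without control replicate 5 it was 4 and 3. Antigen presentation held 6 lower and 3 higher genes of 19, with H2-Ob, a class II chaperone subunit of B cells, lower by 0.90 (adjusted p = 0.00143). That count of 9 fell to 4 or 5 without control replicate 1, 2 or 4 or gapmer 3 replicate 3 or 5.

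Many proliferation genes were lower. Of 29 cell cycle genes 14 fell and none rose, with a median of -0.44 and every member's difference below 0, and 9 were called without control replicate 2, control replicate 4 or gapmer 3 replicate 3, without gapmer 3 replicate 1 and control replicate 3 together, and 0 with the controls averaged. Top2a, topoisomerase II alpha of dividing cells, read 9.40, 9.55, 9.55, 9.68 and 9.21 on the controls and 8.64, 8.76, 8.33, 8.66 and 8.76 under gapmer 3, and fell by 0.85 log2 units (SE 0.17, adjusted p = 0.00181). Its PBS control mean was 7.26, so the gapmer 3 arrays remained above uninjured lung. The mitotic kinase Plk1 fell by 0.72 log2 units (SE 0.15, adjusted p = 0.0027), from 10.69, 11.05, 10.83, 10.93 and 10.65 to 10.16, 10.25, 9.74, 10.19 and 10.19, and the mitotic cyclin Ccnb2 by 0.69 log2 units (SE 0.14, adjusted p = 0.00243), from 11.53, 11.76, 11.75, 11.75 and 11.49 to 10.99, 11.12, 10.62, 10.97 and 11.13. The groups did not overlap in these 3 genes.

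Promoters of the same 3 genes are shown because genes of mitosis are known to share CCAAT boxes, which NF-Y binds. They are the 250 bases before the start from RefSeq on GRCm38.p6, in the direction of transcription, with CCAAT on either strand in capitals, no 2 matches overlapping. Top2a (chromosome 11) and Ccnb2 (chromosome 9) lie on the minus strand and Plk1 (chromosome 7) on the plus strand.
Top2a promoter (chr11:99024190-99024439): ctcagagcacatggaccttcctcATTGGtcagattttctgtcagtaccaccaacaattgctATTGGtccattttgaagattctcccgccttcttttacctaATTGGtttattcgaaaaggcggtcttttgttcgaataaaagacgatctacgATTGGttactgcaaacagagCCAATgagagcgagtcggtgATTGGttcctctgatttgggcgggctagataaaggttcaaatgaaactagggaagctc
Plk1 promoter (chr7:122159185-122159434): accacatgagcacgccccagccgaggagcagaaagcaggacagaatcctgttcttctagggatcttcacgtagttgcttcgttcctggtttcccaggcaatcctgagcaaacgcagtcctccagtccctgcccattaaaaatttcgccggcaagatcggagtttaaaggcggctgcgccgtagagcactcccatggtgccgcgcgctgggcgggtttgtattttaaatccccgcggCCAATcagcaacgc
Ccnb2 promoter (chr9:70421555-70421804): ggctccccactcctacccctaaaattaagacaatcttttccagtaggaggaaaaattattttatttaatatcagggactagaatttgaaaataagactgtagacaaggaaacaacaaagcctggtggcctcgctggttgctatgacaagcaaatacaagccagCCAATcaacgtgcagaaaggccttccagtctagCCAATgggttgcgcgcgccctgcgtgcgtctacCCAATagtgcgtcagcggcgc
The windows hold 6, 1 and 3 matches. Of 24 cell cycle genes with a promoter sequence, 18 held CCAAT (75%), against 37.5% of 27025 genes and 33.8% of 32851 promoters, and 10 of the 12 called ones with a sequence did.

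Other processes changed in part. In the circadian clock list 5 of 17 genes were higher and 2 lower: Dbp, an output gene, rose by 0.59 log2 units (SE 0.11, adjusted p = 0.00151), from 14.43, 14.03, 14.33, 14.29 and 14.67 to 14.88, 15.14, 14.82, 14.87 and 14.98, Per2, a repressor of the clock, by 0.55 (adjusted p = 0.000583), while the activator Arntl fell by 0.50 (adjusted p = 0.00597) and Nfil3 by 0.63 (adjusted p = 0.00785). The hour of sampling is not given in the sources used here. Of 18 cholesterol and fatty acid synthesis genes 6 were higher and none lower, among them the desaturase Scd1 by 0.62 (adjusted p = 0.0173), and 3 without control replicate 2 or gapmer 3 replicate 3. Of 23 Nrf2 and antioxidant genes, 5 were lower and 1 higher: the metallothionein Mt2 fell by 1.11 (adjusted p = 0.000112), heme oxygenase Hmox1 by 0.76 (adjusted p = 0.00156) and the glutathione transferase Gsta3 rose by 0.60 (adjusted p = 0.0122). Hypoxia and glycolysis genes were lower in 5 of 17, with Adm, adrenomedullin, at -0.80 (adjusted p = 0.000268), and higher in 1, Vegfa.

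Zbtb16, a strongly glucocorticoid-induced gene, read 10.50, 10.06, 10.84, 10.54 and 11.33 on the controls and 12.51, 10.91, 13.33, 11.77 and 11.52 under gapmer 3, a rise of 1.36 log2 units (SE 0.33, adjusted p = 0.00816), with gapmer 3 replicate 2 inside the control range. Only 2 of 17 glucocorticoid response genes were higher and 1 lower. Unfolded protein response genes were higher in 3 of 20, among them Chac1 by 0.35 (adjusted p = 0.00762), and 1 without control replicate 1, 2 or 4 or gapmer 3 replicate 3. The lists of lymphatic endothelium, p53 targets, immediate early genes, red blood cells, mesothelium and adipose tissue had 1 to 3 called members each, and those counts ranged from 0 to 3 when single arrays were left out. Skeletal and cardiac muscle, thymus and sex-linked lists had none.

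Genes that respond to bleomycin were taken from the gapmer 1 mice, whose group means share no array with the gapmer 3 comparison. There bleomycin against PBS called 1966 genes (9.48%), 1317 higher (6.35%) and 649 lower (3.13%). The fit gave each gene 1 estimate of spread over all 24 arrays, so genes of small spread are called more readily in both comparisons. In a fit of the gapmer 1 groups alone 485 genes were called. Of the 1317 raised genes, 426 (32.3%) were lower and 52 higher under gapmer 3, with a median difference of -0.16, against 7.52% and 5.63% of all genes. Of the 116 raised more than 2-fold, 65 (56%) were lower and 4 higher, with a median of -0.54. Of the 649 lowered genes, 156 (24%) were higher and 24 lower, with a median of 0.13. Timp1, raised by 1.78 log2 units in gapmer 1 mice, fell by 1.93 under gapmer 3, and Ccl8, raised by 0.99, fell by 1.59. Sprr2f, Spink8 and Mmp7, the largest falls, had differences in gapmer 1 mice of -0.30, 0.03 and -0.14, and none was called there. The count of 1966 was 1272 without gapmer 1 PBS replicate 1 and 1068 without replicate 2.

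**Figure D4:**
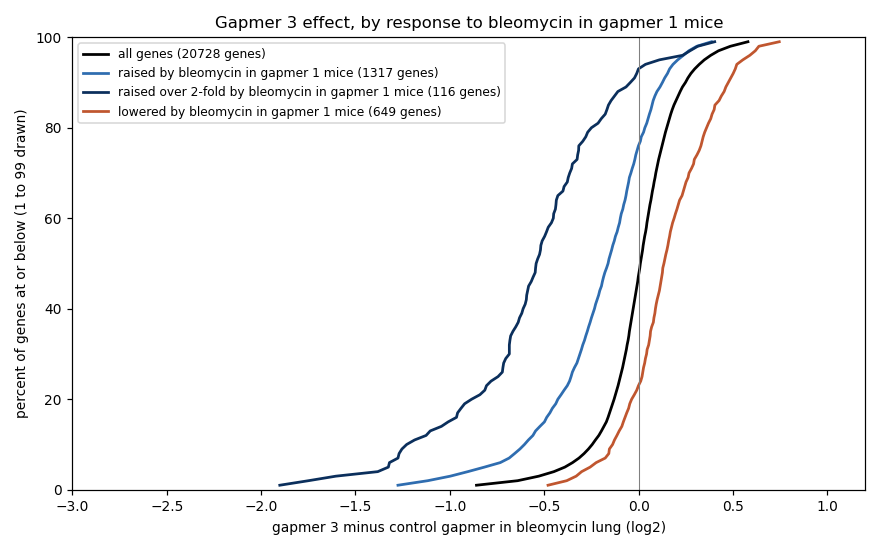
Cumulative share of genes (vertical axis, percent) by the gapmer 3 minus control difference in bleomycin lung (horizontal axis, log2), for all 20728 genes and for genes called raised or lowered by bleomycin in gapmer 1 mice, which share no array with the comparison. The curve of the 116 genes raised over 2-fold is shifted to the left, with a median of -0.54, and that of the 649 lowered genes to the right, with a median of 0.13.

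In uninjured lung, with 3 arrays in each group, few genes were called under gapmer 3. Against the PBS controls 7 genes (0.0338%) were called, 2 higher (0.00965%) and 5 lower (0.0241%), while 2024 (9.76%) had an unadjusted p under 0.05. Upk3a, a uroplakin, read 8.12, 7.75 and 8.12 under the control gapmer and 6.80, 7.19 and 7.07 under gapmer 3, a difference of -0.98 log2 units (SE 0.16, adjusted p = 0.0162). Plagl1, an imprinted zinc finger gene, read 12.83, 12.92 and 12.57 and 13.44, 13.29 and 13.37, a difference of 0.59 log2 units (SE 0.10, adjusted p = 0.0162). Ptprs, a receptor phosphatase, differed by -0.79 (adjusted p = 3.98e-07). These 3 genes were also called in the same direction in bleomycin lung, at -1.25 (adjusted p = 1.09e-06), 0.58 (adjusted p = 2.75e-05) and -0.33 (adjusted p = 9.12e-05). The other 4 were Ptger3, a prostaglandin E receptor, at -0.94 (adjusted p = 0.00708), Itgbl1 at -0.75 (adjusted p = 0.0446), Mogat2 at -0.64 (adjusted p = 0.0105) and Spag11b, a defensin-like gene, at 1.51 (adjusted p = 7.2e-06). None of these 4 was called in bleomycin lung, where Spag11b differed by 0.32 (adjusted p = 0.0643), and by 0.36 with an adjusted p of 0.0386 without control replicate 5. The count in PBS lungs ranged from 2 to 30 when 1 of the 6 arrays was left out: it was 3, 30 and 2 without PBS control replicates 1, 2 and 3, and 2 without PBS gapmer 3 replicate 1.

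The effects of gapmer 3 in the 2 conditions were set side by side, since these comparisons share no array. Across genes, which are not independent replicates, they had a Pearson correlation of -0.07 and a Spearman correlation of 0.00. The 1559 genes lower in bleomycin lung had a median difference of -0.03 in PBS lung, and the 1167 higher genes also -0.03, beside -0.02 for all genes. The difference of the 2 effects passed the threshold for 641 genes (3.09%), 301 positive (1.45%) and 340 negative (1.64%), and this balance turned to 1044 and 719 with array weights, 601 and 514 with the replicate block and 668 and 493 without bleomycin control replicate 5. Of the 641, 548 were called in bleomycin lung, whose arrays enter both tests. Tnc fell by 1.11 in bleomycin lung and differed by 0.07 in PBS lung, a difference of effects of -1.18 (adjusted p = 0.00196). Acta2 differed by -0.79 and 0.29, a difference of effects of -1.08 (adjusted p = 0.00413), and Cxcl5 by -2.08 and -0.20, with -1.88 (adjusted p = 0.000128). For Upk3a and Plagl1 the difference of effects was -0.27 (adjusted p = 0.526) and -0.01 (adjusted p = 0.973).

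The count of 641 depended on single arrays. It was 424, 312, 359 and 1161 without bleomycin control replicates 1, 2, 4 and 5, 246 and 302 without PBS control replicates 1 and 3, and 278 and 391 without PBS gapmer 3 replicates 1 and 2. The PBS gapmer 3 arrays also differed in tissue make-up: the adipose list had means from 10.10 to 10.91 there and from 11.19 to 12.06 on the PBS controls. The genes with the largest positive difference of effects included the adipose genes Retn at 2.30 (adjusted p = 0.0499) and Acvr1c at 1.48 (adjusted p = 0.0304), as well as Sult1e1 at 2.11 (adjusted p = 0.00353), A530016L24Rik at 1.43 (adjusted p = 0.00984) and Cyp2e1 at 2.14 (adjusted p = 0.0389). In PBS lung Retn differed by -1.59 (adjusted p = 0.338). The part of fat in these values was not tested.

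**Figure D5:**
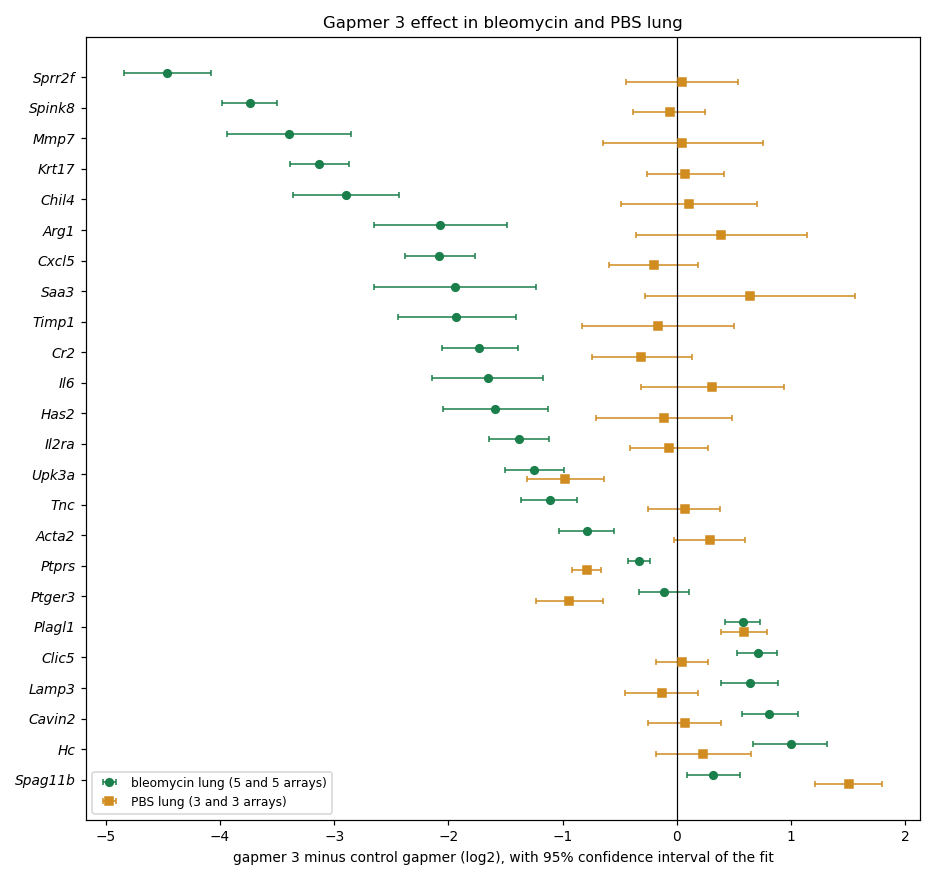
Gapmer 3 minus control gapmer (horizontal axis, log2) for 24 genes in bleomycin lung (green circles, 5 and 5 arrays) and PBS lung (orange squares, 3 and 3 arrays), with 95% confidence intervals of the fit. The bleomycin falls of Sprr2f, Krt17 and Cxcl5 have PBS values near 0, while Upk3a (-1.25 and -0.98) and Plagl1 (0.58 and 0.59) have the same sign in both.

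Gapmer 1, the other oligonucleotide against Dnm3os, was compared with gapmer 3 directly in bleomycin lung. No gene passed the threshold in the direct comparison of 5 and 5 arrays with limma, the smallest adjusted p being 0.284, and 838 genes (4.04%) had an unadjusted p under 0.05. The median half-width of the 95% intervals, not adjusted for the number of genes, was 0.183, and among genes above the median level the largest difference, 1.82, was not called. Each gapmer is compared with the same 5 control arrays, and the values are given side by side for that reason only: Dnm3os differed from the controls by -0.50 under gapmer 3 and -0.72 under gapmer 1, Timp1 by -1.93 and -1.66, Cd3d by -1.14 and -0.95, and Ccl8 by -1.59 and -0.76. The direct difference of Ccl8, gapmer 3 minus gapmer 1, was -0.82 with a 95% interval from -1.13 to -0.51, and that of Timp1 was -0.27, from -0.78 to 0.25. These intervals are also not adjusted for the number of genes, and neither difference was called.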

How the data were processed

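Total RNA of whole mouse lung from 24 samples was labelled with Cy3 and hybridised to 1-colour Agilent arrays, per the labels. The authors deposited log2 quantile-normalised intensities in 1 table, per the labels and the table itself, and the submitters' processing notes name limma. The background correction is not given in the sources used here, and scanner intensities were not used. Of 62976 features, 31465 carried 1 gene symbol in GEO's platform annotation and 31511 none. Of 20774 symbols, 18550 were current in RefSeq, 1957 were updated through an accession and 263 through a synonym, and 4 were kept as listed. Array medians lay between 6.485 and 6.495, and the number of arrays limits the precision. RNA integrity numbers ran from 8.5 to 10.0.

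Groups were taken from the sample titles. The 6 group means were fitted to all 24 arrays by lmFit and moderated by eBayes (limma 3.58.1, R 4.3.3; two-sided), with Benjamini-Hochberg adjustment over 20728 genes and an adjusted p under 0.05 as the threshold. The 6176 genes with several features were represented by the feature with the highest mean. Among all genes on the lists or named in the text, 84 called ones had several bright features, and all bright features had the same sign in 79. Features of Dnm3os were also tested with two-sided exact permutation tests (SciPy 1.17.1). On simulated arrays for the bleomycin comparison of gapmer 3 and control over 20728 genes, the fit recovered 81% of changes of 1.5-fold, 93.9% of 2-fold and 98.7% of 4-fold, with 5.15% of calls false. The simulated noise was normal and independent between genes and arrays, with each gene's own spread. It held none of the differences in tissue make-up of the real arrays, so these figures do not measure the accuracy of the real calls.

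The members and the gene lists were chosen with earlier results of these data known, so the lists are described by counts and medians without a test. The 49 lists held 891 measured entries of 923, for 844 genes, 44 of them on several lists. Genes named in the text were 20 fixed ones, the 12 largest falls and rises without overlap whose higher group mean lay above the median of gene means (8.54), up to 6 called members per list, and up to 6 genes each way of the PBS comparison and of the difference of effects. Alternatives were normalisation, dim genes, features, variance models, array weights, samples in the fit, RNA integrity, a replicate block and omission of each array. No column of another sample was used.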

Additional observations from a re-analysis of the deposited data

Results flagged for a closer look

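For 82 of the 161 genes named in the text the effect of gapmer 3 differed between bleomycin and PBS lung, by limma's test of the difference of effects with an adjusted p under 0.05. These genes were chosen for their bleomycin values or for this difference itself, so their share is not to be read against that of all genes. The values that follow are that difference, bleomycin minus PBS, in log2 units. It was negative for 61 genes and positive for 21.

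In epithelium it was -4.51 for Sprr2f, -2.53 for Sprr2d, -0.83 for Sprr2e, -0.40 for Sprr2h, -3.68 for Spink8, -3.45 for Mmp7, -3.21 for Krt17, -3.04 for Alox12e, -3.63 for Gsdmc3, -1.77 for Gsdmc, -0.93 for Gsdmc4, -1.22 for Cldn4 and -1.17 for Sfn. Among secretory genes it was -3.91 for Clca1, -2.07 for Fcgbp, -1.39 for Muc5ac, -1.10 for Agr2, -1.67 for Ltf, -0.99 for Muc5b and -1.19 for Spag11b. The values of 4 genes of alveolar epithelium or lung endothelium were positive, with 0.77 for Lamp3, 0.66 for Clic5, 0.68 for Sox18 and 0.74 for Cavin2. Most members of those lists were not called for this difference. It was called for 1 of 17 type 2 cell genes, 1 of 16 type 1 cell genes and 3 of 23 lung endothelium genes, none negative.

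Among matrix and mesenchymal genes it was -1.18 for Tnc, -1.76 for Timp1, -1.48 for Has2, -1.08 for Acta2, -0.63 for Tagln, -1.02 for Actg2, -1.49 for Wnt10a, -1.04 for Sfrp1, -0.82 for Lef1, 0.38 for Fgf10, 0.91 for Thbs3 and 0.62 for Itgbl1. Among lymphocyte genes it was -1.31 for Il2ra, -1.20 for Cd6, -1.19 for Cd3d, -1.0 for Foxp3, -1.42 for Cr2 and -1.0 for Tnfrsf13c. It was -1.11 for Cd79a, -0.94 for Ms4a1, -3.25 for Igkv5-39, -1.02 for Klrg1, -0.82 for Ltb and -1.14 for Ccr6. For the L-selectin ligand Glycam1 and the vascular ligand Madcam1, which are not lymphocyte genes, it was -2.85 and -1.47.

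Among macrophage, chemokine and cytokine genes it was -2.46 for Arg1, -1.66 for Retnla, -3.0 for Chil4, -1.88 for Cxcl5, -1.55 for Ccl8, -1.71 for Ccl2, -0.91 for Ccl5, -1.96 for Il6, -1.27 for Il1b, -0.91 for Il11 and 0.68 for Il33. Acute phase, interferon and stress genes gave -2.57 for Saa3, -1.27 for Serpina3n, -1.21 for Saa1, -0.97 for Zbp1, -2.03 for Ubd, -1.07 for Mt2 and -0.93 for Hmox1. The clock genes Dbp, Per2 and Arntl gave 0.72, 0.73 and -0.69.

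The remaining genes were positive: 1.5 for Cys1, 1.02 for Fam162b, 0.82 for Mlc1, 0.83 for Ptger3, 0.46 for Ptprs, 0.74 for Mogat2, 2.30 for Retn, 2.14 for Cyp2e1, 2.11 for Sult1e1, 1.48 for Acvr1c and 1.43 for A530016L24Rik.

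In 17 of the 322 groups of 5 bleomycin arrays behind these genes (5.28%), 1 array lay far from the other 4 by Dixon's test at the 95% level, which chance alone gives in about 1 of 20 groups. Gapmer 3 replicate 3 was the distant array in 12 of the 17. It was low for Tnc (6.72), Grem1 (7.29), Wnt10a (7.61), Ltf (11.18), Cd3d (9.60), Klrg1 (7.29), Ccl2 (9.00), Ltb (11.80), Top2a (8.33) and Plk1 (9.74), and high for Snhg11 (10.24) and Chil1 (15.67). Gapmer 3 replicate 1 was low for Krt5 (8.11) and Fgf7 (9.58) and high for Il11 (7.73). Control replicate 5 was high for Wnt10b (7.45), and control replicate 3 was low for Sprr2h (5.62).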

How the results depend on the processing

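The count of 2726 genes in bleomycin lung was 5121 with array weights (2488 higher and 2633 lower), 3135 with the sample number as a replicate block and 2999 with a position trend removed, the last chosen after seeing the data. It ran from 1775 (without control replicate 2) to 3065 when single arrays were left out. With the 5 control arrays averaged to 1, also chosen after seeing the data, it was 128, 7 higher and 121 lower, where the lone array is assumed to vary like the others. In PBS lung the count of 7 was 4 with the RNA integrity number as a covariate, 1 in a fit of the groups compared alone, 6 with the block and 2 to 30 when single arrays were left out. The difference of effects, 641 genes, gave 1763 with array weights, 287 with RNA integrity, 1115 with the block and 246 to 1161 when single arrays were left out. Bleomycin against PBS in gapmer 1 mice, 1966 genes, gave 898 with RNA integrity, 485 in a fit of its groups alone and 1068 to 2273 when single arrays were left out. Gapmer 3 against gapmer 1 gave 0 under every alternative run. The causes of these changes were not tested.

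The bleomycin Dnm3os difference ran from -0.59 to -0.46 for the brightest feature, from -0.26 (exact p = 0.00794, without gapmer 3 replicate 1) to -0.17 for the second and from -0.11 to -0.05 for the third when single arrays were left out. In PBS lung the 3 features ran from -0.31 to -0.17, from -0.27 to -0.03 and from -0.15 to -0.08.

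Of 142 called genes named in the text none changed sign under any alternative, and 29 were called under all of them; averaging the controls took away 113 calls and each other alternative at most 5. Of all 2726, 6 changed sign when the features of a gene were averaged. Postn, never called, was -0.00 and turned to 0.1 (adjusted p = 0.44) with array weights. The alternative scalings shifted the median of all genes by at most 0.015. The labels share sample numbers between groups, but samples with the same number did not deviate together in bleomycin lung (r from -0.22 to 0.06 over 5 pairs and 10364 genes), where 0 of 5 correlated best with their own number. In PBS lung r was 0.33, -0.27 and 0.14, and 1 of 3 did; not every pair passed 0.1, so the numbers were not taken as pairs. The Dnm3os features and the genes under the 25th percentile lie near the floor of the table, which limits how well their falls are resolved.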

Other observations

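Relatives of the genes with the largest falls, chosen after their values were seen, were also lower under gapmer 3 in bleomycin lung. Beside Sprr2f, the small proline-rich genes Sprr2d, Sprr2e and Sprr2h differed by -2.53 (adjusted p = 3.13e-11), -0.69 (adjusted p = 1.13e-05) and -0.34 (adjusted p = 0.00158) with limma. Sprr2d read 8.19, 8.67, 7.86, 8.26 and 7.68 on the controls and 5.59, 5.44, 5.60, 5.61 and 5.77 under gapmer 3, beside a PBS control mean of 5.52. Beside Gsdmc3, the gasdermins Gsdmc and Gsdmc4 differed by -1.26 (adjusted p = 7.04e-05) and -0.77 (adjusted p = 0.000296). These families hold near-identical copies, and the values of their members may not be independent.

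A further 5 genes were also chosen after their values were seen. Fcgbp, a mucus protein, read 10.06, 10.22, 9.93, 10.19 and 9.32 on the controls and 8.66, 8.35, 8.32, 8.57 and 8.14 under gapmer 3, a fall of 1.54 log2 units (SE 0.23, adjusted p = 9.83e-05). Tff1, a trefoil peptide secreted with mucins, differed by -1.75 (adjusted p = 0.000726), with control replicate 5 (7.21) nearest to the gapmer 3 arrays, and Mucl1 by -1.27 (adjusted p = 0.00455). Ccr6, a chemokine receptor of B cells and T helper 17 cells, read 11.11, 11.34, 10.87, 11 and 10.86 on the controls and 9.87, 9.78, 9.26, 9.72 and 9.58 under gapmer 3, a fall of 1.39 log2 units (SE 0.12, adjusted p = 1.74e-07), and its PBS control mean was 9.68. Madcam1, the vascular ligand through which lymphocytes enter mucosal lymphoid tissue, fell by 1.40 log2 units (SE 0.19, adjusted p = 4.98e-05), with control replicate 5 (7.03) far below the 4 other controls. The gapmer 3 and control arrays did not overlap in any of these 5 genes.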
